A study of Mus musculus with 14 samples.

Results

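The lysosomal genes described here are 47 members of 7 classes, chosen by their symbols from the deposited table of read counts. They comprise 14 cathepsins and other proteases, 6 membrane proteins, 9 sphingolipid and glycolipid hydrolases with the saposin precursor, 6 glycosaminoglycan hydrolases, 5 genes for glycogen, lipid and mannoside hydrolases, sterol binding and progranulin, 4 subunits of the proton pump and 3 transcription factors of the MiT/TFE family. All 47 were among the 25212 rows of the table, and all 47 were tested, as 47 of the 14252 genes that passed the filter on low counts. The RNA came from the livers of 14 male C57BL/6 mice, 1 library per liver, all of which had become obese on a high-fat diet (HFD) and stayed on it. The DIO group (5 mice) had no surgery. In the GB-IL group (4 mice) the gallbladder was joined to the ileum and the common bile duct was tied off, so that bile entered the distal small intestine, and the RYGB group (5 mice) had a Roux-en-Y gastric bypass. The labels place all livers at 8 weeks and give no age. Since the labels describe the DIO mice as not operated on, surgery as such and the new route of bile or food cannot be told apart in these groups. The authors also report weight loss and poorer fat absorption after both operations, which cannot be told apart from them either.

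Lysosomes are the acidic organelles in which a cell digests material it has engulfed or taken up by endocytosis, and its own components delivered by autophagy. A proton pump in the lysosomal membrane acidifies the lumen, proteases and hydrolases with acidic optima break down proteins, lipids and sugar chains, and membrane proteins protect the boundary and export the products. Many of the genes share a promoter motif that is bound by the transcription factors TFEB, TFE3 and MITF. In the liver, hepatocytes use lysosomes for autophagy and for cholesterol ester breakdown, whereas Kupffer cells and recruited macrophages are especially rich in cathepsins.

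The total count per liver was between 18223135 and 28656631 reads. On the first principal component of all tested genes (48.5% of the variance) GB-IL 4 lay at 35.4, inside the range of the DIO livers (21.9 to 45.7), whereas GB-IL 1, GB-IL 2 and GB-IL 3 lay at -134, -106 and -20.1. Whether the label of GB-IL 4 is right was not tested, and the calls are given with and without this liver. Markers of hepatocytes (11 genes) summed to between 102698 and 164695 CPM (counts scaled to a common library size) of the total count over the 14 livers. Among RYGB livers, RYGB 5 stood apart on the first principal component (-17.4, the others between 2.14 and 33.8) and in its summed markers of neutrophils (158 CPM of the total count against 8.06 to 13), sinusoidal endothelium (729 against 244 to 356) and stellate cells (558 against 287 to 392). RNA of the whole liver was measured, so that fewer cells of a type and less RNA per cell cannot be told apart.

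In the DIO livers the lysosomal genes covered a wide range of levels. On the scale of CPM per kilobase of exon, which allows different genes to be compared, the highest mean levels were those of Lamp1 (243), the most abundant glycoprotein of the lysosomal membrane, of Psap (237), the precursor of the saposins that present lipids to hydrolases, and of the aspartic protease Ctsd (167). They were followed by Ctsz (145), Ctsb (133), Grn (84.8) and Ctsl (75.9). At the other end stood Ctse (0.267), Galc (0.353), Ctsk (0.409), Mitf (0.524), Ctsw (0.553), Atp6v0d2 (0.825) and Cd63 (0.841), a tetraspanin of late endosomes and lysosomes. The lengths were those of all exons annotated for a gene, so that a gene with long rare exons is understated on this scale. All further levels of single genes are CPM scaled by edgeR's TMM method, which is suited to comparing livers and not genes.

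Cathepsin S, legumain, cathepsin L, the tetraspanin CD63 and the d2 subunit of the proton pump had higher transcript levels in the livers of GB-IL mice than in those of DIO mice. For each of these 5 genes the groups did not overlap, every GB-IL liver being the higher (2.64% of all genes; 0 of the 47 were lower without overlap, with 1.54% of all genes). The question asked by the comparison is how diverting bile to the ileum altered the liver of obese mice. Calls were made with the quasi-likelihood test of edgeR, adjusted by the Benjamini-Hochberg method over all 14252 genes, at a false discovery rate of 0.05. By it, 5 of the 47 lysosomal genes were called higher (10.6%, with 3.15% of all genes called higher) and 0 were called lower (0.112% of all genes). Regardless of the test, 32 of the 47 had a positive log2 fold change (68.1%, with 53.1% of all genes). The median of the 47 was 0.23 where the median of all genes tested was 0.04. At an unadjusted p under 0.05, 16 were higher and 1 was lower, and the corresponding shares of all genes were 16.7% and 6.43%. DESeq2 called 9 higher and 0 lower (all genes 7.77% and 1.3%), and voom with sample quality weights called 6 higher and 0 lower (3.58% and 0.554%). EdgeR called 0 of the 47 when only the GB-IL and DIO livers were fitted (smallest adjusted p 0.0844) and 0 when the replicate number was added as a block (0.0677).

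**Figure D1:**
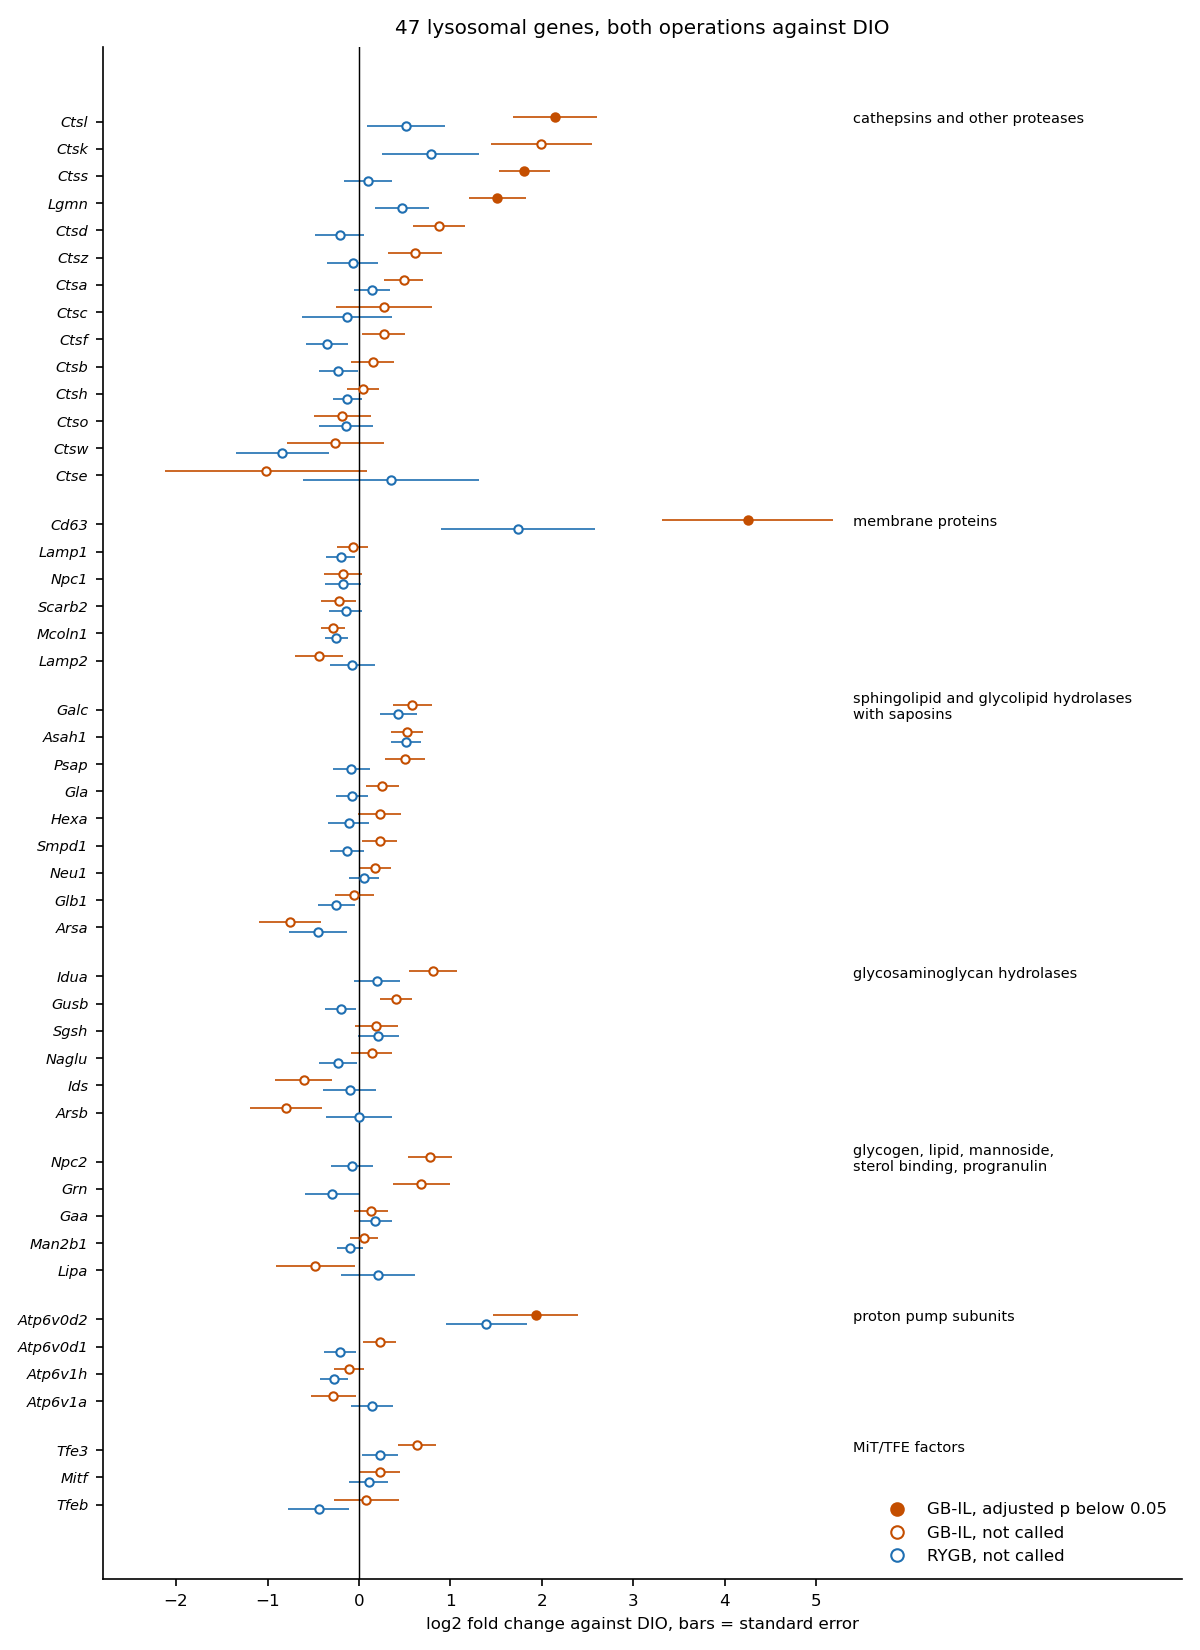
Log2 fold changes of the 47 lysosomal genes (points, grouped by role) in GB-IL (orange) and RYGB (blue) livers against DIO livers, with the standard error of the fit as bars and filled points for an adjusted p below 0.05. The 5 filled points are Ctsl, Ctss, Lgmn, Cd63 and Atp6v0d2 in GB-IL, the membrane proteins other than Cd63 lie at or below 0 in both operations, and every RYGB point is open.

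Of the 5 called genes, 3 were proteases. Ctss (chr3:95526786-95556403 of mm10, plus strand) encodes cathepsin S, a cysteine protease of antigen-presenting cells that keeps its activity at neutral pH. Its level was 193, 158, 180.3 and 62.7 CPM in GB-IL 1 to 4, and 44.9, 45.2, 48.2, 36.5 and 38.0 CPM in DIO 1 to 5. The first 3 GB-IL livers were far above every DIO liver and GB-IL 4 was closer to them. The fitted log2 fold change was 1.81 ± 0.28 (SE, edgeR adjusted p = 0.0278), and the exact two-sided permutation p on the CPM was 0.00794. That is the smallest that 4 against 5 livers can give. All 5 called genes had this value, which the lack of overlap largely fixes.

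Lgmn (chr12:102394084-102439813, minus strand) encodes legumain, the asparaginyl endopeptidase that processes several cathepsins to their mature forms. It was at 253, 226, 179 and 87.7 CPM in GB-IL 1 to 4 and at 66.4, 61.0, 85.4, 63.3 and 52.0 CPM in DIO 1 to 5. GB-IL 4 exceeded DIO 3, the highest DIO liver, by little. Its log2 fold change was 1.51 ± 0.31 (SE, edgeR adjusted p = 0.0287).

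Ctsl (chr13:64359337-64370890, minus strand) encodes cathepsin L, a broadly expressed cysteine endopeptidase. It was at 5155, 1997, 946 and 568 CPM in GB-IL 1 to 4 and at 517, 408, 493, 524 and 522 CPM in DIO 1 to 5. The spread among the GB-IL livers was wide, with GB-IL 1 far above the others and GB-IL 4 just above the DIO livers. The log2 fold change was 2.14 ± 0.46 (SE, edgeR adjusted p = 0.0310), and 1.13 with voom and sample quality weights. Without GB-IL 1 it was 1.25 and was not called (edgeR adjusted p = 0.0845). Ctsl alone accounted for 43.2% of the counts of all 47 lysosomal genes in GB-IL 1, 21.9% in GB-IL 2, 10.9% in GB-IL 3 and 9.08% in GB-IL 4, and for between 7.17% and 8.77% in the DIO livers.

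**Figure D2:**
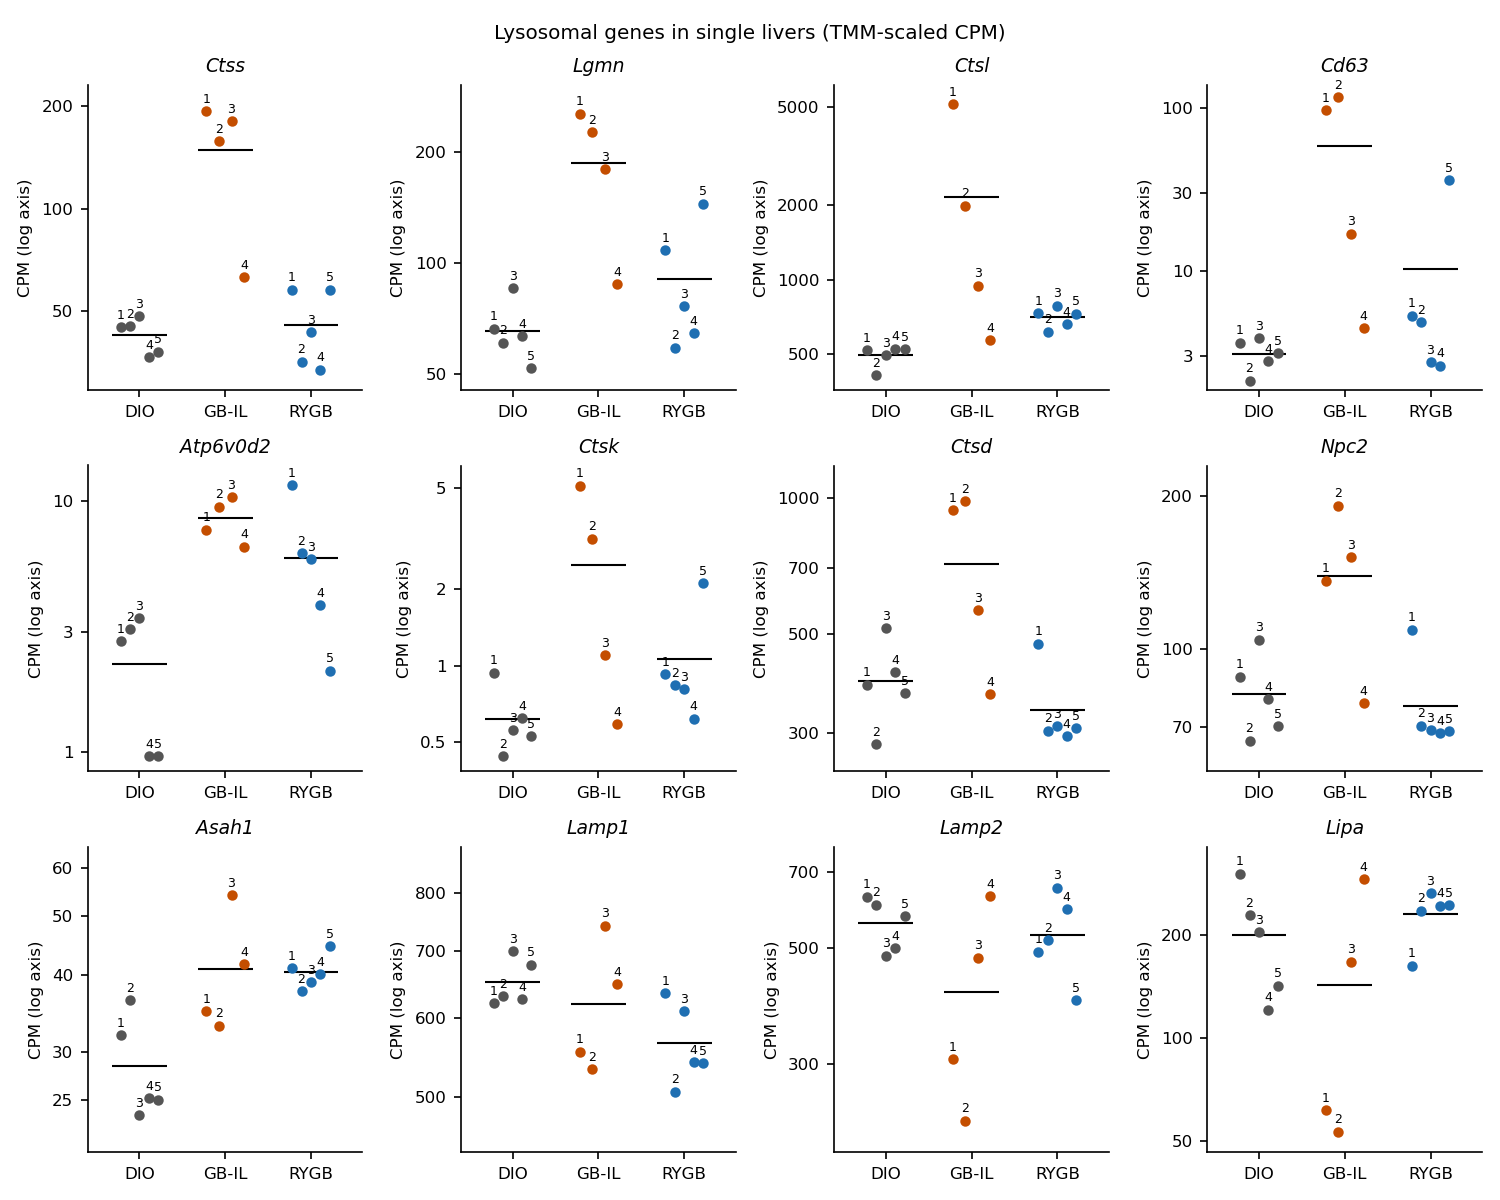
CPM scaled by TMM (log axes) of 12 lysosomal genes in each liver, numbered within its group, with the group mean as a bar. In the top row and for Atp6v0d2 all 4 GB-IL livers lie above all DIO livers, for Ctsk, Ctsd and Npc2 GB-IL 4 lies among them, and for Lamp2 and Lipa GB-IL 1 and GB-IL 2 lie below.

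The remaining 11 proteases did not pass the adjustment in the edgeR fit of all livers, and DESeq2 called Ctsk and Ctsd among them. Ctsk, a potent collagenase best known from osteoclasts, was at 5.10, 3.16, 1.1 and 0.590 CPM in GB-IL 1 to 4 and at 0.942, 0.442, 0.559, 0.622 and 0.528 CPM in DIO 1 to 5, so that GB-IL 4 lay within the DIO range (log2 fold change 2.00 ± 0.55, SE, edgeR adjusted p = 0.0607). Ctsd, the main aspartic protease of lysosomes, was at 942, 987, 563 and 366 CPM in GB-IL 1 to 4 and at 384, 283, 514, 410.4 and 368 CPM in DIO 1 to 5 (log2 fold change 0.87 ± 0.28, SE, edgeR adjusted p = 0.0989). The same pattern, with GB-IL 1 to 3 above all DIO livers and GB-IL 4 not, was seen for Ctsa, the protective protein of neuraminidase and β-galactosidase, and for Ctsz, a carboxypeptidase. Ctsb, an abundant cysteine protease, did not differ beyond its spread (675, 817, 1267 and 799 CPM against 831, 715, 1084, 686 and 705 CPM, log2 fold change 0.15 ± 0.23, SE, edgeR adjusted p = 0.701). Cathepsin C, the activator of granule serine proteases, separated the GB-IL livers in both directions: Ctsc was at 27.1 and 38.7 CPM in GB-IL 1 and GB-IL 2, below every DIO liver (57.8 to 147 CPM), and at 300.1 CPM in GB-IL 3, above them. GB-IL 4 lay inside the DIO range for Ctsc, at 140 CPM. For the other 5 proteases (Ctse, Ctsf, Ctsh, Ctso and Ctsw) the log2 fold changes lay between -1.02 and 0.27. Ctse and Ctsw were measured at the limit of these libraries, with between 0.0986 and 4.43 CPM for Ctse in any liver.

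Among the 6 membrane proteins only Cd63 (chr10:128900989-128912822, plus strand) was called. It was at 97.3, 117, 16.9 and 4.46 CPM in GB-IL 1 to 4 and at 3.61, 2.11, 3.86, 2.77 and 3.12 CPM in DIO 1 to 5. The difference was thus large in GB-IL 1 and GB-IL 2, moderate in GB-IL 3 and slight in GB-IL 4. Its log2 fold change of 4.25 ± 0.94 (SE, edgeR adjusted p = 0.0314) was the largest of the 47. Reads could be shared with the pseudogene Cd63-ps, which the table lists with between 0 and 36 counts per liver where Cd63 had between 43 and 2070.

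The structural glycoproteins of the lysosomal membrane did not follow Cd63. Lamp1 was at 555, 533, 742 and 648 CPM in GB-IL and at 620.1, 631, 699, 626 and 678 CPM in DIO (log2 fold change -0.07 ± 0.17, SE, edgeR adjusted p = 0.818). Lamp2, which also serves as a receptor in chaperone-mediated autophagy, was at 307, 234, 479 and 629 CPM in GB-IL 1 to 4 and at 627, 606, 483, 500.2 and 576 CPM in DIO (log2 fold change -0.44 ± 0.26, SE, edgeR adjusted p = 0.317). Its 3 lower GB-IL livers were the same that were highest for Ctss. The other 3 members of the class, the glucocerebrosidase transporter Scarb2, the calcium channel Mcoln1 and the cholesterol exporter Npc1, had log2 fold changes between -0.28 and -0.18 and none was called.

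No hydrolase of sphingolipids or glycolipids was called, and the 9 genes of the class had a median log2 fold change of 0.23. Psap was at 1046, 993, 980 and 663 CPM in GB-IL 1 to 4 and at 669, 527, 751, 656 and 644 CPM in DIO, a log2 fold change of 0.51 ± 0.22 (SE, edgeR adjusted p = 0.186), and GB-IL 1 to 3 exceeded the DIO range. Asah1, the acid ceramidase, was at 34.9, 33.1, 54.1 and 41.7 CPM in GB-IL and at 31.9, 36.4, 23.6, 25.2 and 25.0 CPM in DIO (log2 fold change 0.53 ± 0.17, SE, edgeR adjusted p = 0.0997, called by DESeq2 and by voom). In the opposite direction, Arsa, the sulfatase that degrades sulfatides, was at 15.7, 23.5, 49.9 and 66.5 CPM in GB-IL 1 to 4 and at 48.2 to 75.0 CPM in DIO (log2 fold change -0.75 ± 0.34, SE, edgeR adjusted p = 0.204). It was the only lysosomal gene that was lower at an unadjusted p under 0.05.

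The hydrolases of glycosaminoglycans were divided. Idua, the α-L-iduronidase, was at 16.1, 13, 10.2 and 6.38 CPM in GB-IL 1 to 4 and at 4.95 to 8.64 CPM in DIO, and Gusb, the β-glucuronidase, was at 40.9, 55.6, 50.2 and 30.9 CPM in GB-IL and at 29.5 to 36.1 CPM in DIO. Arsb and Ids, which remove sulfates from the same sugar chains, had their lowest values in the same livers: Arsb was at 3.54, 4.01, 13 and 19.5 CPM in GB-IL 1 to 4 against 15.5 to 21.2 CPM in DIO, and Ids was at 6.35, 5.53, 11.1 and 17.9 CPM against 11.7 to 23.5 CPM. None of the 6 genes of the class passed the adjustment with all livers, and their log2 fold changes lay between -0.79 and 0.81.

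In the class of glycogen, lipid and mannoside hydrolases no gene was called by edgeR either, and DESeq2 called Npc2. Npc2, the soluble protein that hands cholesterol to Npc1, was at 136, 191, 152 and 78.1 CPM in GB-IL 1 to 4 and at 88.1, 65.9, 104, 79.4 and 70.4 CPM in DIO (log2 fold change 0.78 ± 0.24, SE, edgeR adjusted p = 0.0880). Grn, the precursor of the granulins, was at 650.2, 488, 515 and 228 CPM in GB-IL and at 219, 201, 328, 357 and 369 CPM in DIO (log2 fold change 0.68 ± 0.31, SE, edgeR adjusted p = 0.209). Both had 3 GB-IL livers above the DIO range and GB-IL 4 inside it. Lipa, the acid lipase that hydrolyses cholesterol esters and triglycerides, had the contrary pattern, 61.5, 53.2, 167 and 292 CPM in GB-IL 1 to 4 against 303, 229, 204, 121 and 142 CPM in DIO (log2 fold change -0.48 ± 0.43, SE, edgeR adjusted p = 0.487). Gaa, the acid α-glucosidase of glycogen, was at 126, 119, 104 and 72.3 CPM against 93.6, 80.1, 105, 109 and 94.5 CPM (log2 fold change 0.13 ± 0.19, SE, edgeR adjusted p = 0.669).

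Of the 4 proton pump subunits, Atp6v0d2 (chr4:19876841-19922605, minus strand) was called and the others were not. This alternative d subunit, best known from osteoclasts and macrophages, was at 7.71, 9.53, 10.4 and 6.60 CPM in GB-IL 1 to 4 and at 2.77, 3.10, 3.41, 0.961 and 0.961 CPM in DIO 1 to 5. It was the called gene whose GB-IL livers agreed best, GB-IL 4 included (log2 fold change 1.93 ± 0.46, SE, edgeR adjusted p = 0.0367). Its broadly expressed counterpart Atp6v0d1 had a log2 fold change of 0.23 ± 0.19 (SE, edgeR adjusted p = 0.446), and those of Atp6v1a and Atp6v1h were -0.28 and -0.10.

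**Figure D3:**
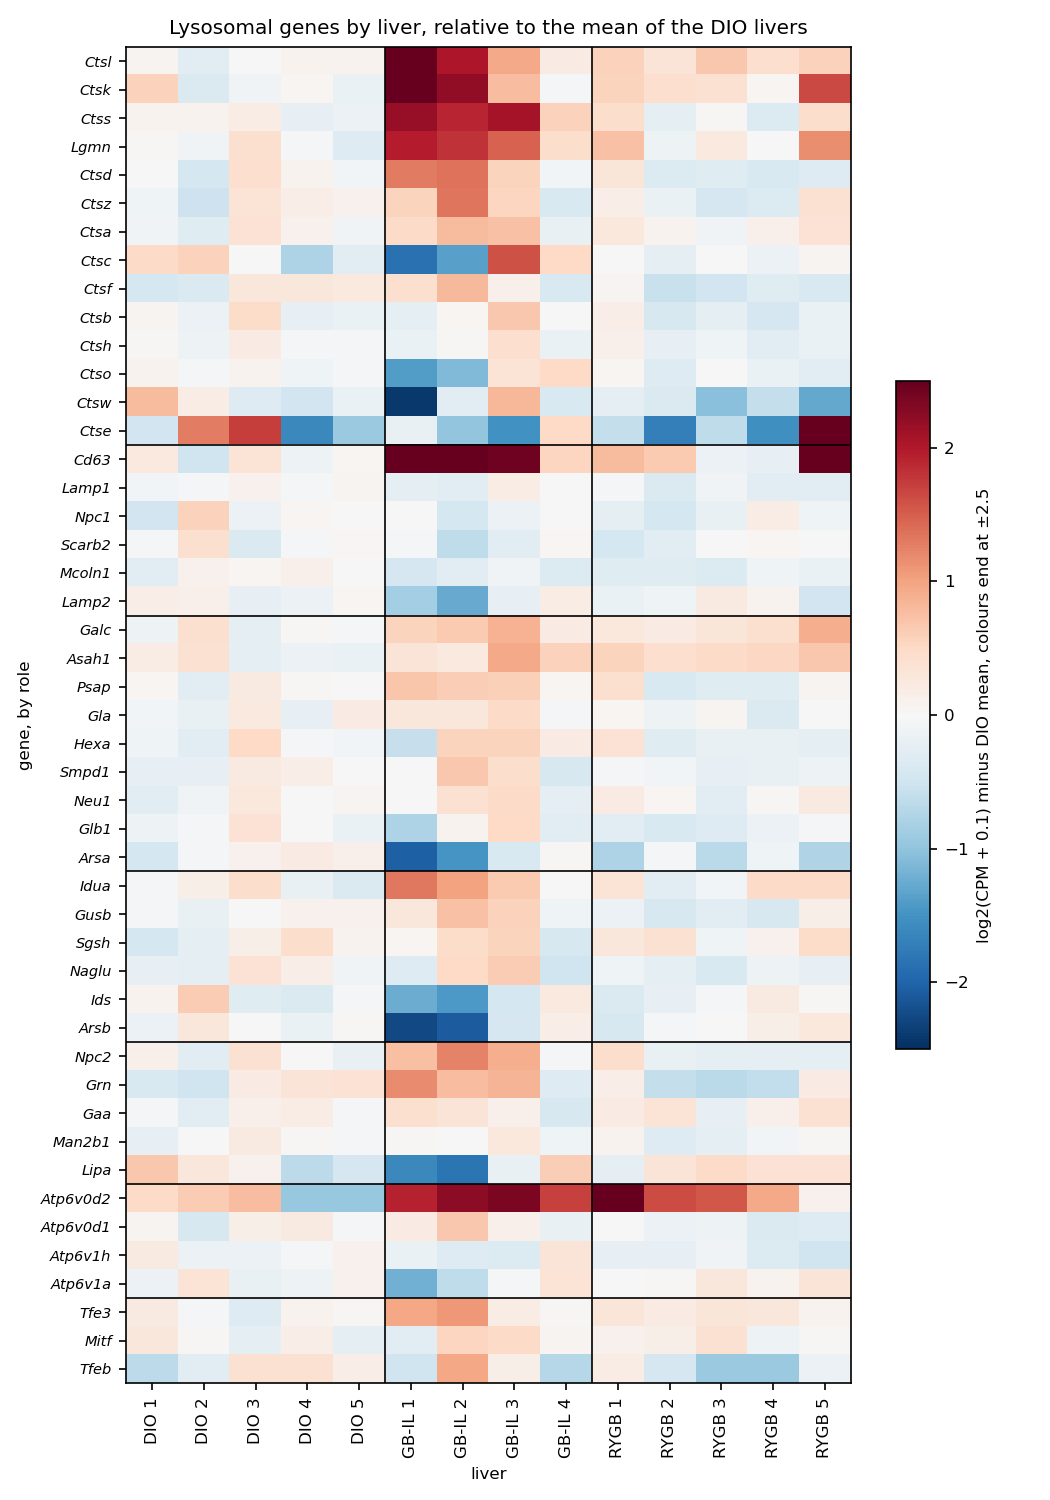
Log2(CPM + 0.1) of the 47 lysosomal genes (rows, by role) in each of the 14 livers (columns), as the difference from the mean of the DIO livers, with colours ending at ±2.5. GB-IL 1 to 3 are red for Ctsl, Ctss, Lgmn and Cd63, GB-IL 1 and GB-IL 2 are blue for Arsb, Ids and Lamp2, GB-IL 4 is close to white for most genes, and RYGB 5 is red for Ctsk, Cd63 and Lgmn.

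The calls rested on the livers in the fit. In 11 of the 47 lysosomal genes (23.4%, with 9.41% of all genes) GB-IL 1 to 3 were above every DIO liver and GB-IL 4 was not, and in 10 (21.3%, with 22.2% of all genes) GB-IL 1 and GB-IL 2 were below every DIO liver and GB-IL 4 was not. When each liver was left out in turn, the fit without GB-IL 4 differed most: 16 lysosomal genes were called higher (15.4% of all genes) and 4 lower (9.27% of all genes). The 11 higher genes beyond the 5 already named were Ctsa, Ctsd, Ctsk, Ctsz, Galc, Psap, Gusb, Idua, Npc2, Grn and Tfe3, and the 4 lower genes were Lamp2, Arsa, Arsb and Ids. In that fit the log2 fold change of Ctsd was 1.08 ± 0.25 (SE, edgeR adjusted p = 0.00834) and that of Arsb was -1.35 ± 0.36 (SE, edgeR adjusted p = 0.0165). Conversely, edgeR called 0 lysosomal genes, and 0 of all genes, when any of DIO 1 to 5, GB-IL 1 or GB-IL 2 was left out. In these 7 fits the smallest adjusted p of a lysosomal gene was between 0.0581 and 0.0942, and between 12 and 15 lysosomal genes had an unadjusted p under 0.05. The calls of Atp6v0d2 were also lost without GB-IL 3, RYGB 2 or RYGB 3.

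**Figure D4:**
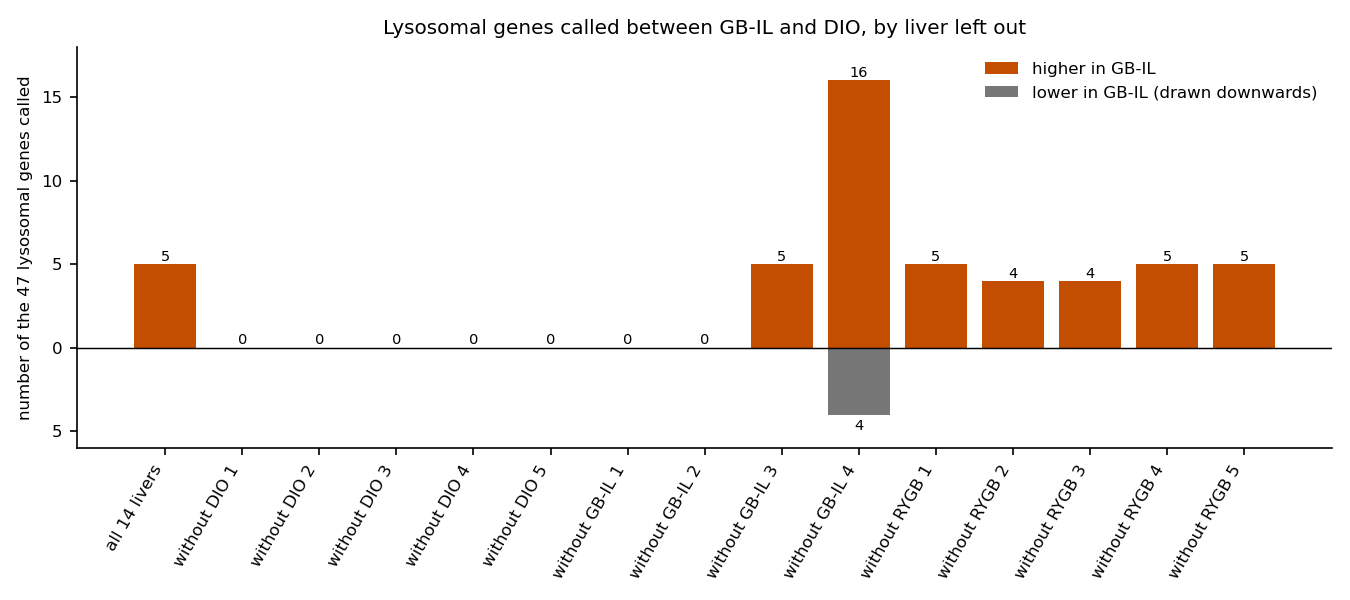
Number of the 47 lysosomal genes called higher (orange, upwards) and lower (grey, downwards) in GB-IL than in DIO by edgeR, with all 14 livers and with each liver left out. The bars show 5 genes with all livers, 16 higher and 4 lower without GB-IL 4, and 0 without any DIO liver, GB-IL 1 or GB-IL 2.

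The counts of all 47 summed to 11223, 8392, 8199 and 6488 CPM of the total count in GB-IL 1 to 4 and to between 5728 and 6685 in DIO. Without Ctsl the sums were 6374, 6552, 7307 and 5899 CPM of the total count in GB-IL and between 5225 and 6206 in DIO, so that GB-IL 3 was then the highest. The 14 proteases summed to 7567, 4920, 4177 and 2746 CPM of the total count in GB-IL 1 to 4 (DIO 2371 to 3077), whereas the 6 membrane proteins summed to 1138, 985, 1385 and 1598 (DIO 1338 to 1693), with GB-IL 1 and GB-IL 2 below all DIO livers.

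In each of the 3 lists of macrophage markers most genes had a positive log2 fold change between GB-IL and DIO, like the called lysosomal genes. The medians were 2.59 for lipid-associated macrophages, 1.37 for monocytes and recruited macrophages and 0.35 for Kupffer cells. The 7 markers of lipid-associated macrophages, such as Gpnmb, Trem2 and Spp1, summed to 675, 479, 312 and 83.0 CPM of the total count in GB-IL 1 to 4, to between 50.9 and 90.1 in DIO and to between 86.8 and 201 in RYGB. All 7 had positive log2 fold changes between GB-IL and DIO and 6 were called by edgeR. Of all genes, 53.1% had a positive log2 fold change and 3.15% were called higher. Gpnmb, a glycoprotein of macrophages and melanosomes, was at 208, 91.4, 16.5 and 0.774 CPM in GB-IL 1 to 4 and at 0.240 to 0.661 CPM in DIO, an order of livers like that of Ctsl. Trem2 and Lgals3 of the same list were instead highest in GB-IL 2. The 11 markers of monocytes and recruited macrophages summed to 361, 536, 826 and 260 CPM of the total count in GB-IL 1 to 4 and to between 120.2 and 232 in DIO, all 11 being higher and 5 called. Those of Kupffer cells, the resident macrophages (10 genes), summed to between 355 (GB-IL 1) and 1986 (GB-IL 3) in GB-IL and to between 661 and 904 in DIO. Of these, 8 were higher, 2 were lower and 1 was called (Marco, log2 fold change 3.13, edgeR adjusted p = 0.0461). No gene of these 3 lists was at 0 in every liver.

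Markers of other cell types also differed between the livers. Markers of cholangiocytes, the bile duct cells (7 genes), summed to 311, 251, 221 and 72.2 CPM of the total count in GB-IL 1 to 4 and to between 47.8 and 76.2 in DIO, and those of neutrophils (10 genes) to 113, 49.7, 447 and 6.85 in GB-IL and to between 5.63 and 11 in DIO. Of 6 cholangiocyte markers tested 3 were called higher, and of 7 neutrophil markers tested 4 were (3.15% of all genes). The cholangiocyte sums fell from GB-IL 1 to GB-IL 4, as the levels of Ctsl did. This order was not particular to them. The hepatocyte marker Tat fell likewise (10974, 4265, 2303 and 1324 CPM in GB-IL 1 to 4). On the first principal component of all tested genes the GB-IL livers also lay in this order (-134, -106, -20.1 and 35.4). Markers of hepatocytes summed to 125497, 125970, 102698 and 133460 CPM of the total count in GB-IL and to between 131712 and 151279 in DIO, but this sum is mostly Alb. Over the 11 hepatocyte genes the median log2 fold change was 0.02, with 6 higher and 5 lower, and 1 was called (Fgb, 1.57, edgeR adjusted p = 0.0489). Markers of stellate cells summed to 835, 287, 227 and 340.1 CPM of the total count in GB-IL 1 to 4 and to between 204 and 326 in DIO, with 7 of 9 higher and 1 called. Those of stomach and intestine epithelium summed to 41.1, 46.5, 39.3 and 233 in GB-IL 1 to 4 and to between 88.4 and 222 in DIO, and 0 of the 2 tested were called (0 at an unadjusted p under 0.05). Among the markers of T and NK cells, of B and plasma cells, of dendritic cells and of sinusoidal endothelium 0 were called between GB-IL and DIO. The part of these cell types in the levels of the lysosomal genes was not tested.

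**Figure D5:**
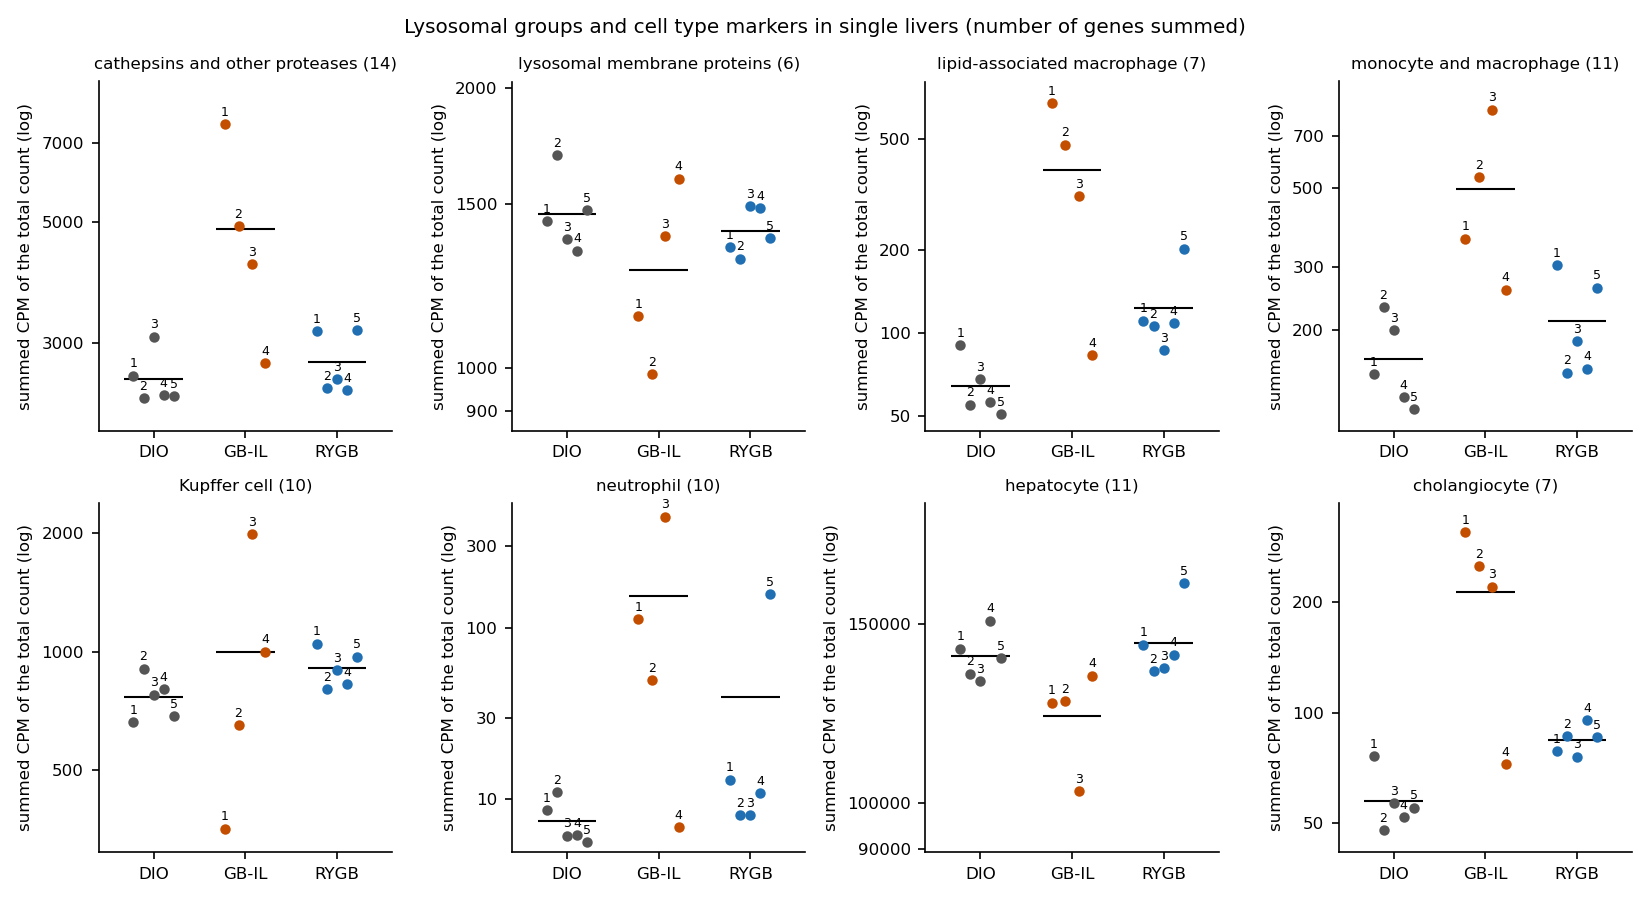
Summed CPM of the total count (log axes) of 2 lysosomal classes and of 6 lists of cell type markers in each liver, numbered within its group, with the group mean as a bar. GB-IL 1 to 3 are above all DIO livers for the proteases, lipid-associated macrophages, monocytes and macrophages, neutrophils and cholangiocytes, and RYGB 5 is above the other RYGB livers for lipid-associated macrophages and neutrophils.

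In the livers of RYGB mice no lysosomal gene was called against DIO. The comparison asked how the bypass altered the same tissue. EdgeR called 0 of 47 higher and 0 lower (0.0% of all genes in both directions), and DESeq2 also called 0 of 47 (0.449% of all genes higher and 0.232% lower), whereas voom with sample quality weights called 2 higher (Asah1 and Atp6v0d2, with 6.08% of all genes) and 4 lower (Ctsf, Gusb, Grn and Tfeb, with 5.77% of all genes). At an unadjusted p under 0.05 edgeR had 3 higher (Atp6v0d2, Asah1 and Galc, with 5.35% of all genes) and 0 lower (3.36%). When only the RYGB and DIO livers were fitted, edgeR also called 0 of the 46 then tested (smallest adjusted p 0.114). In that fit 17 of all 13627 genes were called higher and 16 lower. The median log2 fold change was -0.08 (all genes 0.01), and 19 of the 47 were positive (40.4%, with 51.5% of all genes).

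Both Ctsl and Asah1 had RYGB livers that did not overlap with the DIO livers (2 of 47 genes, with 1.87% of all genes higher without overlap, and 0 of 47 lower, with 1.66%). Ctsl was at 730.4, 614, 782, 658 and 727 CPM in RYGB 1 to 5 against 408 to 524 CPM in DIO. The RYGB livers agreed closely, in contrast to the GB-IL livers, and the log2 fold change was 0.51 ± 0.43 (SE, edgeR adjusted p = 0.766). This SE came from a fit of all 14 livers, the GB-IL livers included. The SD of Ctsl was 66.5 CPM in RYGB and 48.9 CPM in DIO, but 2082 CPM in GB-IL. Asah1 was at 41.0, 37.7, 38.9, 40.2 and 44.6 CPM in RYGB 1 to 5 against 23.6 to 36.4 CPM in DIO (log2 fold change 0.51 ± 0.17, SE, edgeR adjusted p = 0.442). Both genes are named for this lack of overlap, which is a description. Their exact two-sided permutation p on the CPM, 0.00794 for each and not adjusted, is largely fixed by it and is no further test.

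Atp6v0d2 was above every DIO liver in 4 of 5 RYGB livers, at 11.6, 6.21, 5.88, 3.84 and 2.11 CPM in RYGB 1 to 5 (log2 fold change 1.39 ± 0.44, SE, edgeR adjusted p = 0.432). Ctss did not differ beyond its spread, with 57.8, 35.5, 43.3, 33.6 and 57.8 CPM in RYGB and a log2 fold change of 0.10 ± 0.26 (SE, edgeR adjusted p = 0.936). Lamp1 was lower than every DIO liver in 4 of 5 RYGB livers, at 635, 506, 609, 541 and 540 CPM (log2 fold change -0.20 ± 0.16, SE, edgeR adjusted p = 0.751).

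Cd63 was at 36.1 CPM in RYGB 5 and at 5.30, 4.83, 2.74 and 2.6 CPM in RYGB 1 to 4, and its log2 fold change of 1.74 ± 0.84 (SE, edgeR adjusted p = 0.582) was 0.32 without RYGB 5. Lgmn was at 145 CPM in RYGB 5 and 108 CPM in RYGB 1 against 59.1 to 76.6 CPM in the other RYGB livers. RYGB 5 was above every DIO liver for 14 of the 47 genes (29.8%, close to the 27.3% of all genes), among them Ctsk, Ctsz, Galc and Idua. Its sum of lipid-associated macrophage markers, 201 CPM of the total count, was the highest among RYGB livers. RYGB 1 had the highest Ctsd (475 CPM against 296 to 311 CPM in the other RYGB livers) and Npc2 (109 CPM against 68.3 to 70.5 CPM).

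When the operations were compared with each other, 35 of the 47 lysosomal genes had a higher fitted level in GB-IL than in RYGB (74.5%, with 52.5% of all genes). The median log2 fold change was 0.34 (all genes 0.03), and edgeR called 0 higher and 0 lower (0.0% of all genes in both directions). The smallest adjusted p was that of Ctss (edgeR adjusted p = 0.0552, log2 fold change 1.71 ± 0.28, SE), which was also the only lysosomal gene with all GB-IL livers above all RYGB livers (1.26% of all genes), and 0 of 47 had them all below (1.59%). At an unadjusted p under 0.05, 14 were higher and 0 lower (15.3% and 6.77% of all genes). DESeq2 called 7 higher (Ctsd, Ctsl, Ctss, Lgmn, Gusb, Npc2 and Grn, with 4.59% of all genes), with 0 lower (1.34%), and voom called Ctss alone (0.779%) and 0 lower (0.0281%). Without GB-IL 4, edgeR called 15 higher (13.4% of all genes) and 4 lower (Lipa, Arsb, Ids and Atp6v1a, with 8.09%). The comparisons with DIO and with RYGB share the GB-IL livers. For Atp6v0d2 and Asah1 the operations gave log2 fold changes of 1.93 and 1.39, and of 0.53 and 0.51, against the same DIO livers. The fitted differences between GB-IL and RYGB were 0.54 ± 0.45 for Atp6v0d2 (SE, edgeR adjusted p = 0.465) and 0.02 ± 0.17 for Asah1 (SE, edgeR adjusted p = 0.955).

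None of the 3 transcription factors of the lysosomal programme was called. Tfe3 was at 47.3, 51.4, 27.6 and 24.9 CPM in GB-IL 1 to 4 and at 28.2, 23.9, 19.4, 26.0 and 24.7 CPM in DIO (log2 fold change 0.63 ± 0.20, SE, edgeR adjusted p = 0.0971), so that GB-IL 1 and GB-IL 2 were above the DIO range. Tfeb was at 7.08, 19.7, 11.1 and 6.08 CPM in GB-IL and at 6.33, 8.21, 13.1, 13.1 and 11.2 CPM in DIO (log2 fold change 0.08 ± 0.35, SE, edgeR adjusted p = 0.901). Mitf was at 2.66, 4.68, 4.49 and 3.39 CPM in GB-IL and at 3.92, 3.29, 2.70, 3.62 and 2.69 CPM in DIO (log2 fold change 0.23 ± 0.22, SE, edgeR adjusted p = 0.512). These factors are known to be regulated by their location in the cell, which RNA counts do not measure.

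The windows around the transcription starts were searched for the E-box that TFEB and its relatives bind, as CACGTG, as the core TCACGTGA and as that core with G before and C after it, each being the same on both strands and the shorter ones being contained in the longer. RefSeq promoters (GRCm38.p6, 250 bases before to 50 after a start) were found for 39 of the 47 genes. CACGTG was in 15 of 39 (38.5%), and in 8.09% of the 27025 genes with such a window. TCACGTGA was in 6 of 39 (15.4%, all genes 1.12%), and the longest form in 0 of 39 (0.370%). The following sequences are shown because they hold the core TCACGTGA before the RefSeq start, because Lamp1 has the most E-boxes before its start, or because the gene was called (Ctsl and Lgmn). The matches are in capitals, and each sequence is read 5′ to 3′ on the strand of its gene.
Ctsd: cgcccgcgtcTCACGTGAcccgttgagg
Ctsa: gagcaaactgTCACGTGAtgcag
Mcoln1: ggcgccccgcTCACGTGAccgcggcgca
Atp6v1a: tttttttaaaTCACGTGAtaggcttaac
Gla: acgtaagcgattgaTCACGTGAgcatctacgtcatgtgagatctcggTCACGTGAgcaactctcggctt
Lamp1: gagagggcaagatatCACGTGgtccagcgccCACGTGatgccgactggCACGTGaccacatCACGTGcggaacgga
Ctsl: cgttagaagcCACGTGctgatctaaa
Lgmn: gaatgtctgtCACGTGgtccatttta

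They lie at chr7:142387909-142387936 (minus strand, Ctsd), chr2:164833750-164833772 (plus, Ctsa), chr8:3500463-3500490 (plus, Mcoln1), chr16:44139374-44139401 (minus, Atp6v1a), chrX:134601179-134601247 (minus, Gla), chr8:13159085-13159160 (plus, Lamp1), chr13:64370741-64370766 (minus, Ctsl) and chr12:102439126-102439151 (minus, Lgmn) of GRCm38.p6. By the GENCODE M21 annotation those of Gla and Lamp1 lie outside the gene, those of Ctsd, Ctsa, Mcoln1 and Ctsl in an exon of at least 1 transcript, and those of Atp6v1a and Lgmn in an intron, since the RefSeq start used is not the outermost annotated start of the gene. Lamp1, with 4 E-boxes within 61 bases of its start, had a log2 fold change of -0.07 between GB-IL and DIO. The 6 genes with the core had 0.87 (Ctsd), 0.49 (Ctsa), 0.26 (Gla), 0.23 (Atp6v0d1), -0.28 (Atp6v1a) and -0.28 (Mcoln1). Ctsl and Lgmn, with a single E-box before the start, had 2.14 and 1.51. The 6 genes with TCACGTGA had a median log2 fold change of 0.24 and the 33 without it 0.23, and 0 and 4 of them were called. With CACGTG the median was 0.19 (15 genes, 2 called) and without it 0.25 (24 genes, 2 called).

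A wider list of 137 other genes of the lysosome and of the routes that lead to it, of which 130 were tested, shows what surrounded the 47. EdgeR called 5 higher in GB-IL than in DIO (3.85%, close to the 3.15% of all genes) and 0 lower. At an unadjusted p under 0.05, 21 were higher and 12 lower (16.2% and 9.23%, all genes 16.7% and 6.43%), and the median log2 fold change was 0.07. DESeq2 called 13 higher and 3 lower (10% and 2.31%, all genes 7.77% and 1.3%). Without overlap of the groups, 4 were higher and 3 lower (3.08% and 2.31%, all genes 2.64% and 1.54%). The genes called by edgeR were the macrophage sialomucin Cd68, the lysosomal adaptor Laptm5 of blood cells, the peptide and histidine transporter Slc15a3, and the protease inhibitors Cstb and Serpinb6a. Cd68 was at 37.8, 46.0, 40.4 and 17.3 CPM in GB-IL 1 to 4 and at 10.7 to 19.3 CPM in DIO (log2 fold change 1.33 ± 0.28, SE, edgeR adjusted p = 0.0297). Cstb, the cystatin that inhibits cathepsins in the cytosol, was at 39.4, 57.2, 40.5 and 27.7 CPM in GB-IL and at 19.8 to 27.0 CPM in DIO, without overlap (log2 fold change 0.85 ± 0.19, SE, edgeR adjusted p = 0.0333). Serpinb6a, a serpin of the cytosol, had a log2 fold change of 1.79 ± 0.40 (SE, edgeR adjusted p = 0.0329), with counts that close relatives could share. Slc15a3 was at 33.6, 18.2, 21.5 and 12.5 CPM in GB-IL 1 to 4 and at 5.38 to 11.5 CPM in DIO, also without overlap, whereas GB-IL 4 lay among the DIO livers for Cd68. The secreted cystatin Cst3 had a log2 fold change of 0.38, the mannose 6-phosphate receptor M6pr of -0.11 and the autophagy receptor Sqstm1 of 0.28, and none was called.

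The parts of the wider list differed in their medians. Of 15 other proton pump subunits 13 had a positive log2 fold change (86.7%, with 53.1% of all genes, median 0.25) and 0 were called. At an unadjusted p under 0.05, 5 of them were higher and 0 lower (all genes 16.7% and 6.43%). Atp6v1g1 was at 85.1, 92.0, 61.7 and 36.8 CPM in GB-IL 1 to 4 and at 35.3 to 46.1 CPM in DIO (log2 fold change 0.82 ± 0.23, SE, edgeR adjusted p = 0.0598), and Atp6v0e2 had a log2 fold change of 0.98 (edgeR adjusted p = 0.123). The 34 other soluble enzymes and activators had a median of 0.08 with 0 called, Galns (0.92) and Hyal1 (-1.02) having the smallest p-values, and among 26 tested membrane proteins 3 were called and the median was -0.09. Genes that sort enzymes to lysosomes (21, median -0.09) and those of nutrient sensing and autophagy (30 tested, median -0.15) had 0 called. In the former, the log2 fold changes of the pair with the smallest p were -0.80 for Gga2, an adaptor that carries enzymes from the Golgi, and 0.45 for Vps16, a subunit of the tethering complexes of late endosomes. In the latter they were 1.32 for Rragd, a Rag GTPase of nutrient sensing that DESeq2 called, and -0.43 for Atg7, an autophagy enzyme. In RYGB livers edgeR called 0 of the 130 against DIO, with a median log2 fold change of -0.06. At an unadjusted p under 0.05, 3 were higher and 8 lower (2.31% and 6.15%, all genes 5.35% and 3.36%). DESeq2 called 2 higher and 0 lower, and voom called 4 higher and 11 lower (3.08% and 8.46%, all genes 6.08% and 5.77%).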

How the data were processed

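Liver RNA of 14 mice was sequenced, with 5 DIO, 4 GB-IL and 5 RYGB livers, each a separate sample by the labels. The authors deposited raw read counts per gene, made per their methods with TopHat2 and HTSeq on mm10, with no version, annotation or strand setting stated in the labels or methods. In the labels are 2 stranded kits, with no word on which liver had which. The total count was between 18223135 and 28656631 per liver. EdgeR 4.0.16 (R 4.3.3) was used with TMM scaling, its filterByExpr filter and the quasi-likelihood test on all 14 livers together, with Benjamini-Hochberg adjustment over 14252 genes at 0.05. Single genes were also compared by exact two-sided permutation of CPM. DESeq2 1.42.0, limma 3.58.1 (voom with sample quality weights), RLE scaling, no filter, a mean of at least 50 counts, only the groups compared, a replicate block and each liver left out were the alternatives. The fits were tested on simulated data. Gene positions came from GENCODE M21 and promoter sequences from RefSeq (GRCm38.p6).

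The members and lists were chosen with earlier results of these data known. The text names the members called in any comparison, those whose RYGB livers did not overlap with DIO livers, 14 fixed genes (Ctsb, Ctsd, Ctsl, Ctss, Lamp1, Lamp2, Lipa, Gaa, Npc2, Psap, Grn, Tfeb, Tfe3 and Mitf), and, of other pathway genes, the 2 with the smallest p per part and a few fixed ones. All other genes named were chosen after their values were seen. Reads shared by genes that overlap on opposite strands cannot be separated without the strand setting. Those shared on the same strand would not be separated by it either (Ctsd with Gm49369, Ctsl with the pseudogene Gm49230 and Glb1 with Tmppe). Overlaps touch Ctsl, Ctsd, Ctsa, Ctsb, Lamp1, Npc1, Glb1, Hexa, Galc, Arsa, Arsb, Sgsh, Idua, Grn and Atp6v1h and, by 10 shared exon bases or fewer, Ctsz and Ctsw. A result for 1 of the fixed other pathway genes is not reported here.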

Additional observations from a re-analysis of the deposited data

Results flagged for a closer look

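Of 141 sets of values (47 genes in 3 groups), 11 had a highest or lowest liver farther from its nearest neighbour than Dixon's test allows at 95%. Chance gives about 1 in 20. RYGB 5 was the highest of its group for Ctse (4.43 CPM), Ctsk (2.11 CPM), Cd63 (36.1 CPM) and Galc (9.75 CPM). RYGB 1 was the highest for Ctsd (475 CPM), Npc2 (109 CPM) and Hexa (87.8 CPM) and the lowest for Lipa (163 CPM). DIO 3 was the highest for Glb1 (20.2 CPM) and Hexa (96.7 CPM), and DIO 2 was the lowest for Ctsl (408 CPM). No GB-IL liver was set apart in this way.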

How the results depend on the processing

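For GB-IL against DIO, edgeR called 5 lysosomal genes higher with all livers, DESeq2 called 9, and 0 were called with only the groups compared or with the replicate block; of the other pathway genes DESeq2 called 13 higher and 3 lower, and 0 were called higher with only the groups compared or with the block. Leaving out each liver gave between 0 and 16 lysosomal genes higher and 0 to 4 lower (other pathway genes 0 to 22 and 0 to 14), with a median log2 fold change of the members between 0.083 and 0.29. For RYGB against DIO, voom called 2 lysosomal genes higher and 4 lower, DESeq2 called 2 other pathway genes higher, and voom called 4 higher and 11 lower. For GB-IL against RYGB, DESeq2 called 7 lysosomal genes higher, voom 1 and the fit without a filter 1; of other pathway genes DESeq2 called 10 higher and 1 lower, and voom 2 higher. Leaving out each liver gave 0 to 15 lysosomal genes higher and 0 to 4 lower (others 0 to 26 and 0 to 8), and medians between 0.16 and 0.38.

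Of 1134 values for named members under the alternatives, 1042 kept their direction and their side of the threshold, 48 lost the call, 31 gained it and 13 changed sign. Most of these values were not called to begin with. All 48 losses fell on the 5 genes called for GB-IL against DIO. Ctss, Lgmn, Ctsl and Cd63 each lost the call under 9 alternatives and kept it under 12, and Atp6v0d2 lost it under 12 and kept it under 9. Outside the fits with a liver left out, those that changed sign were small: with voom, Lamp1 (0.031) and Tfeb (-0.10) for GB-IL against DIO and Lamp2 (0.020) for RYGB against DIO, and without a filter Asah1 (-0.020) for GB-IL against RYGB. With each liver left out, the log2 fold change ranged from -0.068 to 0.27 for Ctsb and from -0.38 to 0.28 for Tfeb (GB-IL against DIO), from -0.16 to 0.025 for Lamp2 and from -0.24 to 0.021 for Npc2 (RYGB against DIO), and from -0.15 to 0.091 for Asah1, from -0.16 to 0.088 for Gaa and from -0.0026 to 0.25 for Mitf (GB-IL against RYGB). The cause of these changes was not tested.

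Same-numbered livers showed no clear pairing: their correlations lay between -0.381 and 0.00807 for GB-IL with DIO, between -0.228 and 0.0209 for DIO with RYGB and between 0.00778 and 0.381 for GB-IL with RYGB. Differently numbered livers of GB-IL with RYGB lay between -0.410 and 0.413. With the replicate block the members' median for GB-IL against DIO was 0.18. Counts limit the precision of Ctse, Ctsw, Ctsk and Atp6v0d2.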
